A study of Mus musculus with 94 samples.

Results

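Thymus gene expression was compared between 4 Hmgn1 mutant mice and 4 wild-type mice of the same line. The 8 arrays, of 94 in the series, were chosen by their titles: the thymus arrays labelled Hmgn1, and the wild-type thymus arrays whose mouse numbers begin with the same digits as those of the mutants. Every mouse was a male of strain C57BL/6N, 17 weeks old, and each array came from a different animal. The mutants were homozygous, per the series' design text. The labels do not say which part of Hmgn1 was altered, whether the wild types were littermates, or in which cells the mutation acts. The series also holds brain, liver and spleen of the same mice, and the same 4 tissues from mice with a mutation in Hmgn3 or in Hmgn5 and from the wild types of those lines, all males of the same strain and age. In thymus, the Hmgn3 and Hmgn5 lines each had 4 mutants and 4 wild types, and no wild-type mouse served more than 1 line. The brain and spleen of the Hmgn1 line had 4 arrays a group, and its liver had 4 mutants and 3 wild types.

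HMGN1 is a small chromatin protein that binds nucleosomes without a preferred DNA sequence, loosens compacted chromatin and competes with linker histone H1. It is expressed in almost every tissue, and it has been linked to DNA repair and to the setting of gene expression levels in differentiating cells. The thymus is where T cells mature. Precursors pass from a double-negative to a double-positive stage in the cortex, and single-positive cells then move into the medulla, drawn there by chemokines of the medullary epithelium. A dissected thymus therefore holds mostly thymocytes, with epithelium, dendritic cells, macrophages, vessels and fat around it.

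Values are the deposited normalised intensities. Changes are mutant minus wild type on the scale log2(intensity + 16), with values below 0 set to 0, which understates the change of dim probes. A probe was tested when it exceeded the noise limit of the array, an intensity of 2.86 to 2.89 on these 8 arrays, on 3 or more of the 24 thymus arrays. This left 18217 of 25697 probes. All 24 thymus arrays, in 6 groups, entered a limma fit with a shared spread, and the p-values were adjusted by the Benjamini-Hochberg method over all tested probes. A probe passed when its adjusted p was under 0.05. Between 14710 and 14743 probes lay above noise on each of the 8 arrays. Pairs of the 8 arrays correlated at 0.974 to 0.990, across probes. The arrays are of whole organs, so fewer cells of a type and less RNA per cell cannot be told apart.

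The labelled tissue matched its markers. Cd3d, a T cell receptor chain, read 3646, 3341, 3807 and 3252 in the wild types and 3207, 3237, 3174 and 3484 in the mutants, and Cd8b1, a co-receptor of double-positive and cytotoxic T cells, read 8792, 8760.4, 8579.5 and 9734 in the wild types and 7809, 8483, 9055 and 8003 in the mutants. Foxn1, the transcription factor of thymic epithelium, was near the noise on all arrays (at most 5.66). Single arrays carried markers of neighbouring tissue. The summed intensity of 8 heart muscle genes was 17615 in wild type 4 and 1237 to 5913 in the other 7 arrays. That of 15 skeletal muscle genes was 7826 in mutant 4 and 656 to 1580.4 in the others. Genes of neutrophils summed to 2653 in mutant 2 and 2140.3 in mutant 4, against 274 to 703 elsewhere. Most of each of these high sums came from Ltf alone, a neutrophil granule gene. Smooth muscle genes summed to 604 in wild type 1 and to 2128 to 4100.4 in the others.

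**Figure D1:**
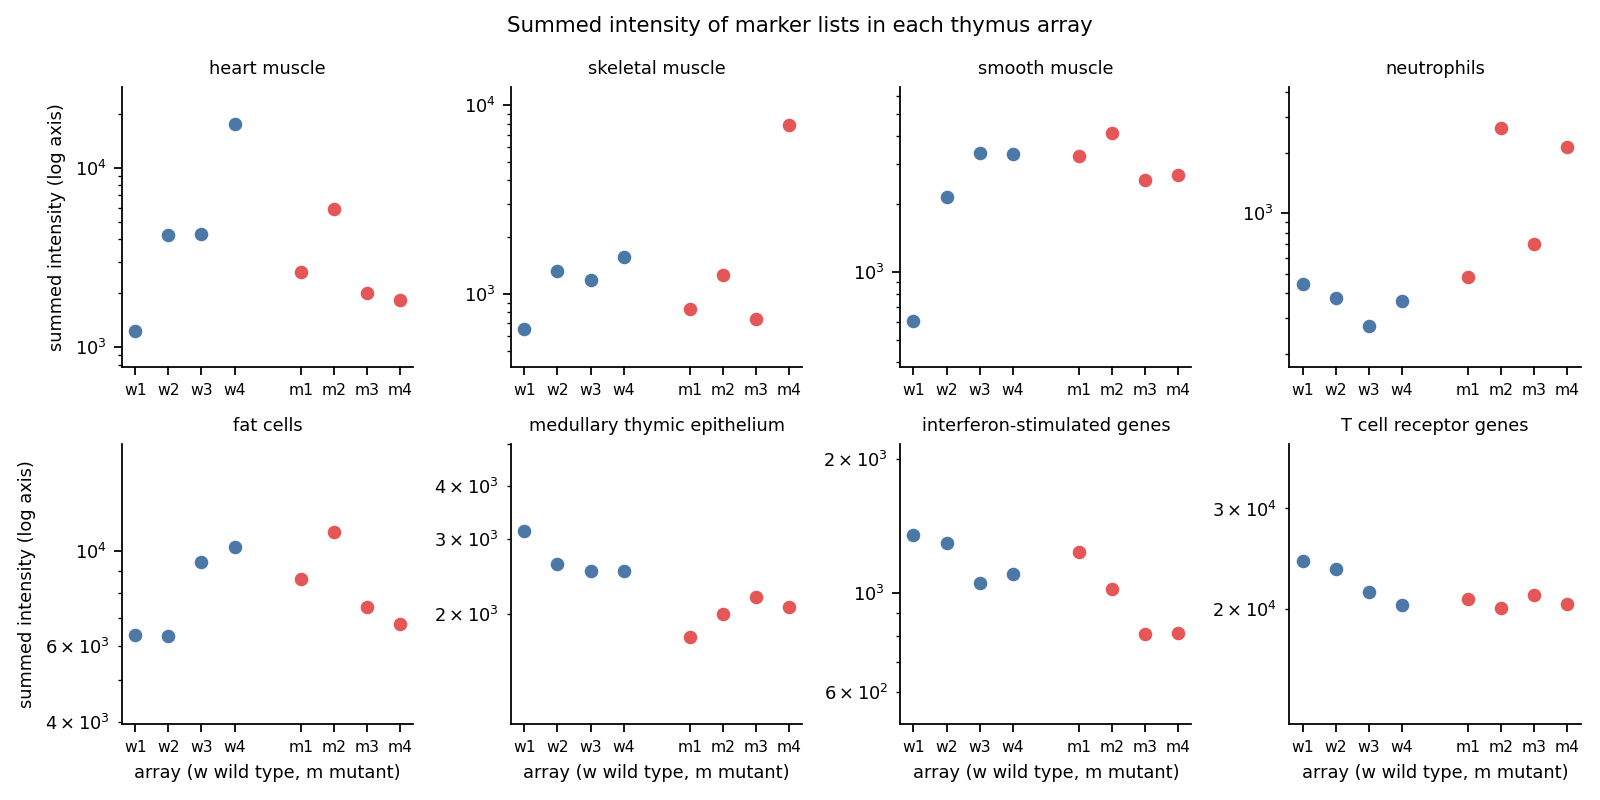
Summed intensity (log axis) of 8 gene lists in each of the 4 wild-type (blue, w1 to w4) and 4 mutant (red, m1 to m4) thymus arrays. Wild type 4 stands apart in heart muscle genes and mutant 4 in skeletal muscle genes. Mutants 2 and 4 stand apart in the neutrophil sum, mostly through Ltf alone. The 2 groups do not overlap in the medullary epithelium sum, a gap that rests on Ccl21a.

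The Hmgn1 probe was lower in the mutants without passing. It read 2300.1, 1842, 1678 and 1507 in the 4 wild types and 1451, 1227, 1319.8 and 1431 in the 4 mutants. Every mutant lay below every wild type, the nearest being wild type 4 and mutant 1. The change was -0.41 (SE 0.12, adjusted p = 0.284 by limma), and an exact two-sided permutation test over the 8 arrays gave p = 0.0286, the smallest that 4 against 4 arrays allow. Whether this probe lies inside the altered part of the gene is not known here, so it does not settle the labels, and the directions below rest on them. The other HMGN genes overlapped between the groups. Hmgn2 was at -0.03 (adjusted p = 0.989), the 2 Hmgn3 probes at -0.10 and 0.03 (adjusted p = 0.915 and 0.985), and Hmgn5 at 0.03 (adjusted p = 0.99).

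In all, 9 probes of 8 genes passed, of 18217. Those that rose were both probes of Cbr3 and the Olig1 probe (3 probes, 0.0165 percent of those tested). Those that fell were of Mrap, Ttc3, Ccl5, Elmo1, Prr5l and Itgae (6 probes, 0.0329 percent), so 0.0494 percent passed in either direction. The median change of all tested probes was -0.0013 and the median size of change 0.111. Of the tested probes 648 were higher (3.56 percent) and 876 lower (4.81 percent) at an unadjusted p under 0.05. The groups did not overlap for 494 probes with every mutant above (2.71 percent) and 605 with every mutant below (3.32 percent). Of the 8 genes, 4 lie on chromosome 16, which also carries Hmgn1: Cbr3, Olig1, Mrap and Ttc3. The count was 17 without wild type 4 and 3 without mutants 2 and 4 together, the arrays with the highest neutrophil sums, and Cbr3 and Ttc3 kept a passing probe in the latter. The probes lost in the latter, smaller fit kept changes of similar size, with larger SEs. Those that fell were Mrap (-1.78), Ccl5 (-1.13), Prr5l (-0.57), Itgae (-0.53) and Elmo1 (-0.50). Those that rose were Olig1 (1.05) and 1 Cbr3 probe (0.94). With only the 8 arrays of the line in the fit 3 probes passed, of Cbr3, Mrap and Olig1.

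**Figure D2:**
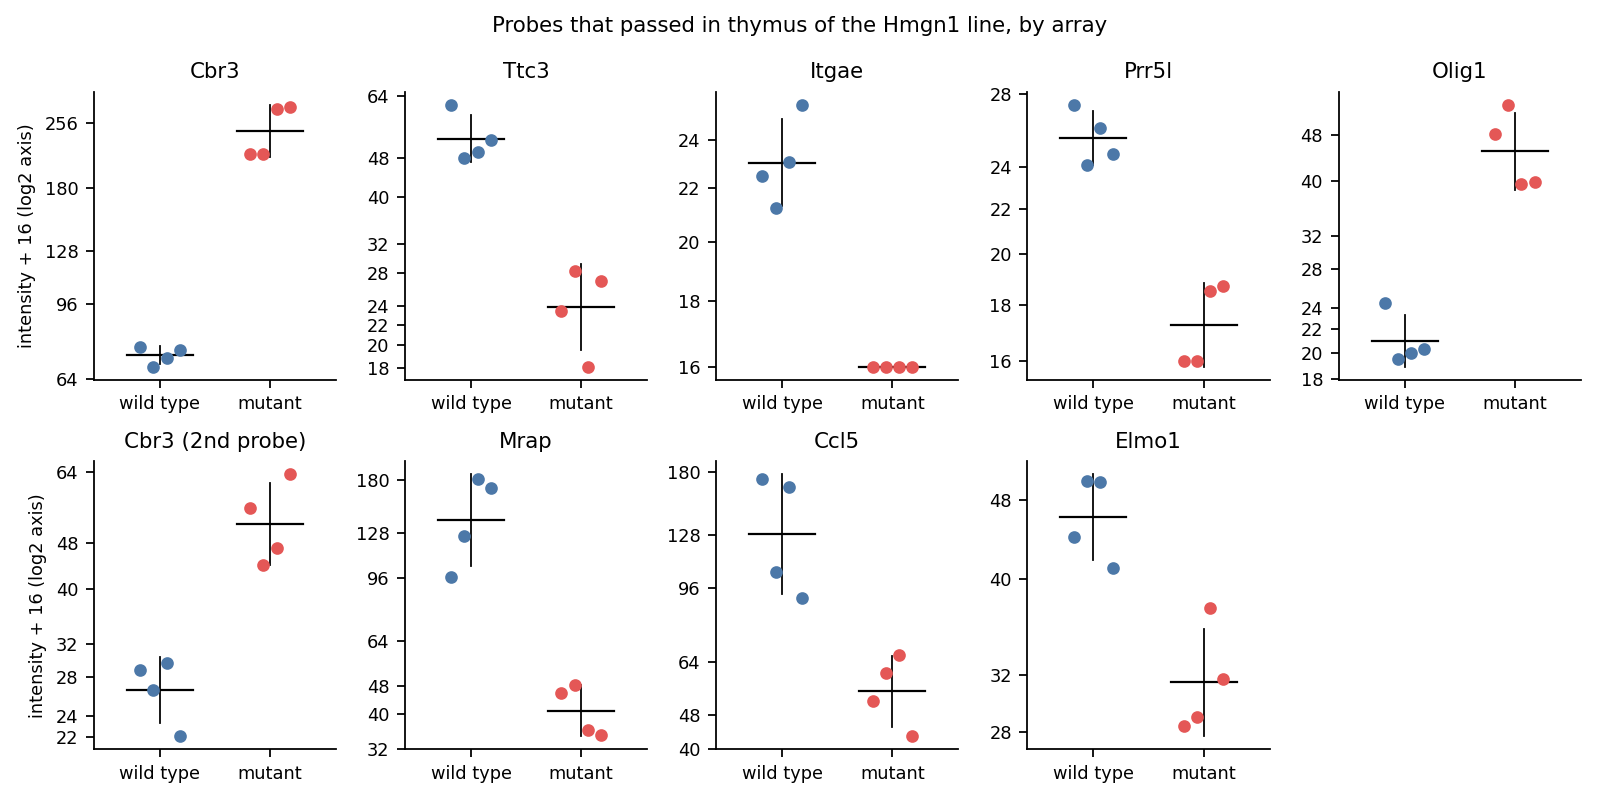
Intensity + 16 (log2 axes that differ between panels, values below 0 set to 0) of the 9 probes that passed, in the 4 wild-type (blue) and 4 mutant (red) thymus arrays. The horizontal bar is the mean and the vertical line ± 1 SD on the log2 scale (n = 4 each). The groups do not overlap for any of the 9 probes, and all 4 Itgae values of the mutants sit at the floor.

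Cbr3 rose, with the smallest p of all tested probes. It encodes a carbonyl reductase, an enzyme that reduces ketones and quinones with NADPH. The first Cbr3 probe read 60.1, 52.3, 55.7 and 58.8 in the wild types and 201, 200.1, 259.7 and 263 in the mutants. The wild types spanned a narrow range, and mutants 3 and 4 were a little above mutants 1 and 2. The change was 1.75 (SE 0.124, adjusted p = 1.14e-08), and the ratio of the means was 4.07. A second Cbr3 probe was dimmer, at 12.8, 10.7, 13.6 and 6.11 against 39.2, 27.9, 31.1 and 47.3, and also rose (0.96, SE 0.143, adjusted p = 0.00211). Cbr1, its neighbour and paralog, read 80.01, 55.4, 45.8 and 93.1 against 68.6, 83.5, 65.96 and 61.9, with overlapping groups and a change of 0.05 (adjusted p = 0.982). Cbr2, a carbonyl reductase encoded on another chromosome, read 781, 888, 944 and 1011 in the wild types and 1039.7, 1662, 1388 and 1758 in the mutants. Its groups did not overlap, but its change of 0.66 did not pass (adjusted p = 0.22). Among the 14 tested carbonyl reductase and NRF2 target genes, those switched on by the oxidative stress factor NRF2, 7 were higher and 7 lower, and Cbr3 alone passed. Their median was 0.01, from -0.03 without wild type 4 to 0.07 without mutant 1. Here and below, a range after the median of a list gives its lowest and highest value over the 8 fits that leave out 1 array, printed where some such fit moved the median by over 1.5 times.

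The RefSeq promoter window of Cbr3 is shown because this gene had the smallest p. It covers 250 bases before to 50 after the annotated start in GRCm38.p6, chr16:93682969-93683268, plus strand. It was searched on both strands for the antioxidant response element core TGACNNNGC that NRF2 uses, and for the GC box GGGCGG. It holds no match to the first and 2 to the second, which overlap and are in capitals. Of 32851 RefSeq windows of this length, 12.4 percent hold the first motif and 35.7 percent the second.
Cbr3: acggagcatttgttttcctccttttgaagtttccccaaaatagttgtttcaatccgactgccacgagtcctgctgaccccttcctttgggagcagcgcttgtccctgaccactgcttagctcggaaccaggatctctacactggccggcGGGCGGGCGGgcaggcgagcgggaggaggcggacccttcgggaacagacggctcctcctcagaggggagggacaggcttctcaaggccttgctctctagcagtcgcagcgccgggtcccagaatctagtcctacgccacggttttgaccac
The window has 19 CG dinucleotides, against a median of 7 over all windows. A match is only a description of the letters, and a lack of one says only that they are not in this window.

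Olig1 rose from near the noise. It encodes a basic helix-loop-helix transcription factor of the oligodendrocyte lineage, and its main site of expression is the brain, where the wild types of this line read 5943 ± 501 (SD, n = 4). In thymus the probe read 8.45, 3.54, 3.98 and 4.35 in the wild types and 32.2, 38.3, 23.4 and 23.8 in the mutants. All wild types were above the noise limit and all mutants well above them, a change of 1.10 (SE 0.163, adjusted p = 0.00211). The ratio of the means was 5.79, above that of Cbr3, so the order of the sizes of these rises depends on the offset of 16. Olig2, the next gene along the chromosome and a partner of Olig1 in oligodendrocytes, lay at or near the noise on all arrays, between -3.81 and 3.67 with overlapping groups, with a change of 0.02 (adjusted p = 0.991). The other tested members of its list were Olig3 (-0.28) and Neurog1 (-0.12), and neither passed.

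Mrap fell. It encodes the melanocortin 2 receptor accessory protein, which carries that receptor to the cell surface and is known from the adrenal cortex and from mouse fat cells. It read 80.5, 110.1, 166 and 155 in the wild types and 29.9, 32.04, 20.1 and 18.9 in the mutants. The lowest wild type was above the highest mutant by a wide margin, and wild types 3 and 4 were the highest. The change was -1.77 (SE 0.27, adjusted p = 0.00256), and the wild-type mean was 5.07 times that of the mutants. Mc2r, the receptor itself, was near the noise (0.03, adjusted p = 0.984). The summed intensity of 11 fat cell genes was 6371, 6326, 9410.4 and 10188 in the wild types and 8605, 11057, 7392 and 6759 in the mutants, so the groups overlapped. Of the 10 tested genes of that list 8 were higher and 2 lower, and none passed or had an unadjusted p under 0.05. The median of the fat cell list was 0.15, from -0.01 without wild type 1 to 0.24 without wild type 3. Adipoq, the fat cell hormone adiponectin, read 699, 901, 1179.8 and 1305 against 882, 1505, 1072 and 1005. The call was lost without wild type 4 and mutant 4 together (adjusted p = 0.075) and without mutants 2 and 4 together (adjusted p = 0.0707), both chosen after the data were seen. The change of Mrap in these smaller fits was -1.60 (SE 0.318) and -1.78 (SE 0.341).

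One Ttc3 probe fell, and 1 of the 2 probes of Pigp, its neighbour, was lower without passing. Ttc3 encodes a ubiquitin ligase with tetratricopeptide repeats. Its probe read 45.4, 31.8, 33.4 and 36.2 in the wild types and 7.43, 12.3, 2.105 and 10.997 in the mutants, of which mutant 3 lay below the noise limit. The change was -1.14 (SE 0.147, adjusted p = 6.00e-04). The 7 other tested Ttc3 probes ranged from -0.17 to 0.22, and none passed, so the fall was that of 1 probe in 8. Pigp encodes a subunit of the enzyme that starts the synthesis of glycosylphosphatidylinositol anchors. Its probe of smaller p read 478, 406, 358 and 358 in the wild types and 265, 253, 231 and 258 in the mutants, without overlap, and the change of -0.63 (SE 0.126) did not pass (adjusted p = 0.0687). The second Pigp probe read 178, 116, 79.2 and 101 against 104, 81.1, 109 and 129, with overlapping groups and a change of -0.11 (adjusted p = 0.927). The 8 tested genes of anchor synthesis, Pigp among them, were 4 of 8 higher and 4 lower, with a median of 0.01, from -0.03 without wild type 3 to 0.05 without mutant 3.

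Ttc3 and Pigp start next to each other on opposite strands, which is why their shared promoter is shown. The Ttc3 window in GRCm38.p6 is chr16:94370489-94370788, plus strand. It overlaps the windows of 3 of the 4 annotated Pigp starts, by up to 288 of 300 bases. Capitals mark matches on either strand to GGGCGG or its complement (the GC box), to the palindrome bound by nuclear respiratory factor 1 and to CACGTG (the E-box); no 2 of these overlap. The palindrome is in 0.971 percent and the E-box in 7.15 percent of all RefSeq windows of this length.
Ttc3 and Pigp: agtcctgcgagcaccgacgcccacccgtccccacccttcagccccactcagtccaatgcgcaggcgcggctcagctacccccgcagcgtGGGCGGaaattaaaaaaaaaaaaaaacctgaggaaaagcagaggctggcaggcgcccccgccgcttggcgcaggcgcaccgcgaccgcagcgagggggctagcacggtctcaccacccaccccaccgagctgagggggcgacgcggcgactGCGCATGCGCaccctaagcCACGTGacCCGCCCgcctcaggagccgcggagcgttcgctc
The window holds 34 CG dinucleotides. The array does not show which start a transcript used.

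The neighbourhood of Hmgn1 was then described by gene order. Within 60 annotated protein-coding genes on either side of Hmgn1 there are 77 genes, since only 16 follow Hmgn1 before the end of the chromosome. Of these, 56 genes with 87 probes were tested. Of the 87 probes 3 rose and 2 fell, which is 5.75 percent, beside 0.0494 percent of all tested probes, and 0 of the 448 other tested probes of chromosome 16 passed. The window was chosen with these calls known, so the share is a description. All 5 called probes lie before Hmgn1: Ttc3 is 9 genes away, Cbr3 19, Olig1 45 and Mrap 53. Pigp is 10 genes away. Over the whole window 43 of the 87 probes were higher and 44 lower, with a median change of -0.0009 and a median size of 0.125, beside 0.111 for all probes. Paxbp1, a gene 48 places away whose product binds Pax transcription factors, read 68.7, 69.3, 58.7 and 73.3 against 49.5, 46.2, 51.7 and 45.2, and its change of -0.38 did not pass (adjusted p = 0.493). With Hmgn1 itself, 8 probes of the window had an unadjusted p under 0.05, 3 higher and 5 lower, which is 9.2 percent beside 8.37 percent of all tested probes, a share near the background. None of the 12 probes after Hmgn1 did. The labels give no marker genotypes of the mice near the mutation, so the part of linked sequence differences between mutants and wild types was not tested.

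**Figure D3:**
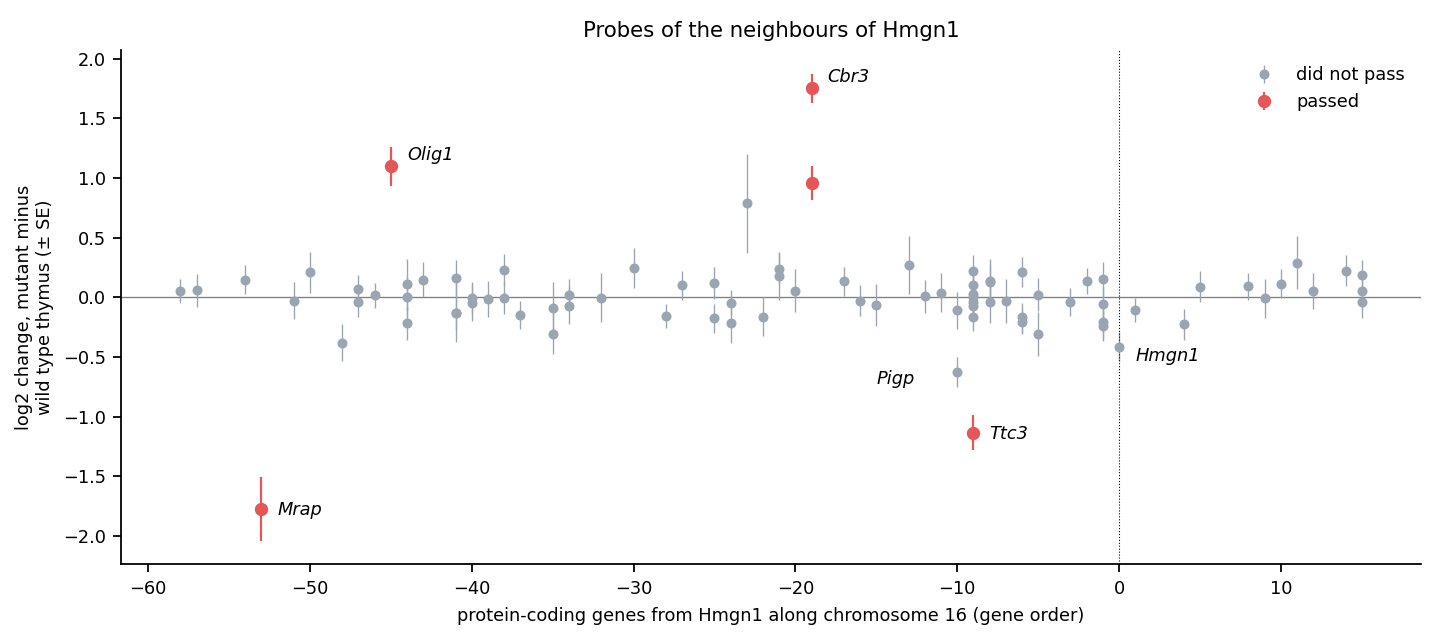
Log2 change (mutant minus wild type, ± SE of the limma fit) of the 87 tested probes of genes near Hmgn1 on chromosome 16, by gene order from Hmgn1 at 0. Passing probes (red) of Mrap, Olig1, Cbr3 and Ttc3 are 53 to 9 genes before Hmgn1, and most probes among and after them lie close to 0, with Pigp, Paxbp1 and Hmgn1 below it.

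On other chromosomes, Ccl5 fell. It encodes RANTES, a chemokine that effector T cells, natural killer cells and macrophages release. It read 157, 88.4, 149 and 74.8 in the wild types and 35.9, 44.2, 50.5 and 26.8 in the mutants. The groups did not overlap, though the gap between wild type 4 and mutant 3 was smaller than the spread of the wild types. The change was -1.23 (SE 0.21, adjusted p = 0.0117). The call was lost when wild type 1, wild type 3, mutant 1 or mutant 4 was left out (adjusted p = 0.0606 to 0.101). Of 13 tested genes of natural killer and cytotoxic cells, 3 were higher and 10 lower (median -0.14, from -0.20 without wild type 4 to -0.09 without wild type 1). The summed intensity of all 17 genes of the list on the array was 652 to 903 in wild types against 539 to 576 in mutants. Klrd1, an inhibitory receptor subunit (-0.57), Cxcr3, a chemokine receptor of effector cells (-0.41), and the pore protein Prf1 (-0.36) had adjusted p-values of 0.205, 0.355 and 0.464. The part of fewer such cells in the fall of Ccl5 was not tested.

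Itgae and Prr5l fell to the noise from low levels. Itgae encodes the integrin chain CD103, which binds E-cadherin on epithelium and is carried by some thymocytes and dendritic cells. Its probe read 6.51, 5.23, 7.06 and 9.54 in the wild types and below 0 in all 4 mutants, which makes it at least 2.41-fold lower (change -0.53, SE 0.0752, adjusted p = 0.0019). Of 6 tested Itgae probes 3, this one among them, were lower at an unadjusted p under 0.05, and the other 5 ranged from -0.57 to 0.02. Prr5l, also known as Protor-2, encodes a partner of the mTORC2 kinase complex. It read 11.4, 8.12, 10.03 and 8.67 in the wild types and -0.597, -1.05, 2.52 and 2.72 in the mutants, where no array was above the noise limit, so it was at least 3.29-fold lower (change -0.56, SE 0.0813, adjusted p = 0.0019). The 8 tested genes of mTORC2 and its partners were 3 of 8 higher and 5 lower (median -0.07, from -0.08 without wild type 2 to -0.04 without mutant 3). Rictor, the defining subunit of the complex, was at -0.34 without overlap of the groups and did not pass (adjusted p = 0.506).

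Elmo1 fell by 1 probe in 14. Its product works with DOCK proteins to activate Rac in cell migration and in the engulfment of dying cells. The probe read 28.1, 34.2, 34.03 and 25.02 in the wild types and 12.4, 12.99, 21.4 and 15.7 in the mutants (change -0.55, SE 0.0999, adjusted p = 0.023). The groups did not overlap, with mutant 3 the nearest to the wild types. The 13 other Elmo1 probes ranged from -0.35 to 0.11 and none passed. The call held in 2 of the 8 fits that leave out 1 array, those without wild type 4 or without mutant 3. In the other 6 the adjusted p was 0.0583 to 0.141. Of 8 tested genes of the ELMO and DOCK module, 1 was higher and 7 lower (median -0.10, from -0.14 without wild type 4 to -0.05 without mutant 2), with Elmo1 itself read there by another of its probes. Apart from Elmo1 and Ccl5, the 7 passing probes held in all 8 of these fits. For Itgae, leaving out any mutant could not move the change of -0.53, because all mutant values were set to 0. The mutants therefore added no spread for that probe.

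The same changes were next set beside those in thymus of the other lines. The Hmgn3 mutants minus their wild types gave 0.04 for Cbr3 and the Hmgn5 mutants -0.40, where it was lower. The difference of the Hmgn1 line from the mean of the other 2 was 1.93 (adjusted p = 1.03e-07). For this test 7 of 18217 probes passed, or 0.0384 percent. Among them, Mrap was at 0.23 and 0.33 in the Hmgn3 and Hmgn5 lines (difference -2.05, adjusted p = 0.0106), and Ttc3 at -0.18 and 0.13 (difference -1.11, adjusted p = 0.0106). Itgae was at -0.03 and 0.01 (difference -0.52, adjusted p = 0.0275). The second Cbr3 probe (0.0589), Olig1 (0.0664) and Prr5l (0.0716) had adjusted p-values above the threshold. Ccl5 was lower in all 3 lines, at -1.23, -0.56 and -0.67 in the Hmgn1, Hmgn3 and Hmgn5 lines, and its line difference did not pass (adjusted p = 1.00). Elmo1 was lower too (-0.14 and -0.35). The line call of Cbr3 held without any 1 array. That of Ttc3 was lost without wild type 1 (adjusted p = 0.0587), that of Mrap without mutant 4 (0.0537), and that of Itgae in 7 of 8 such fits.

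**Figure D4:**
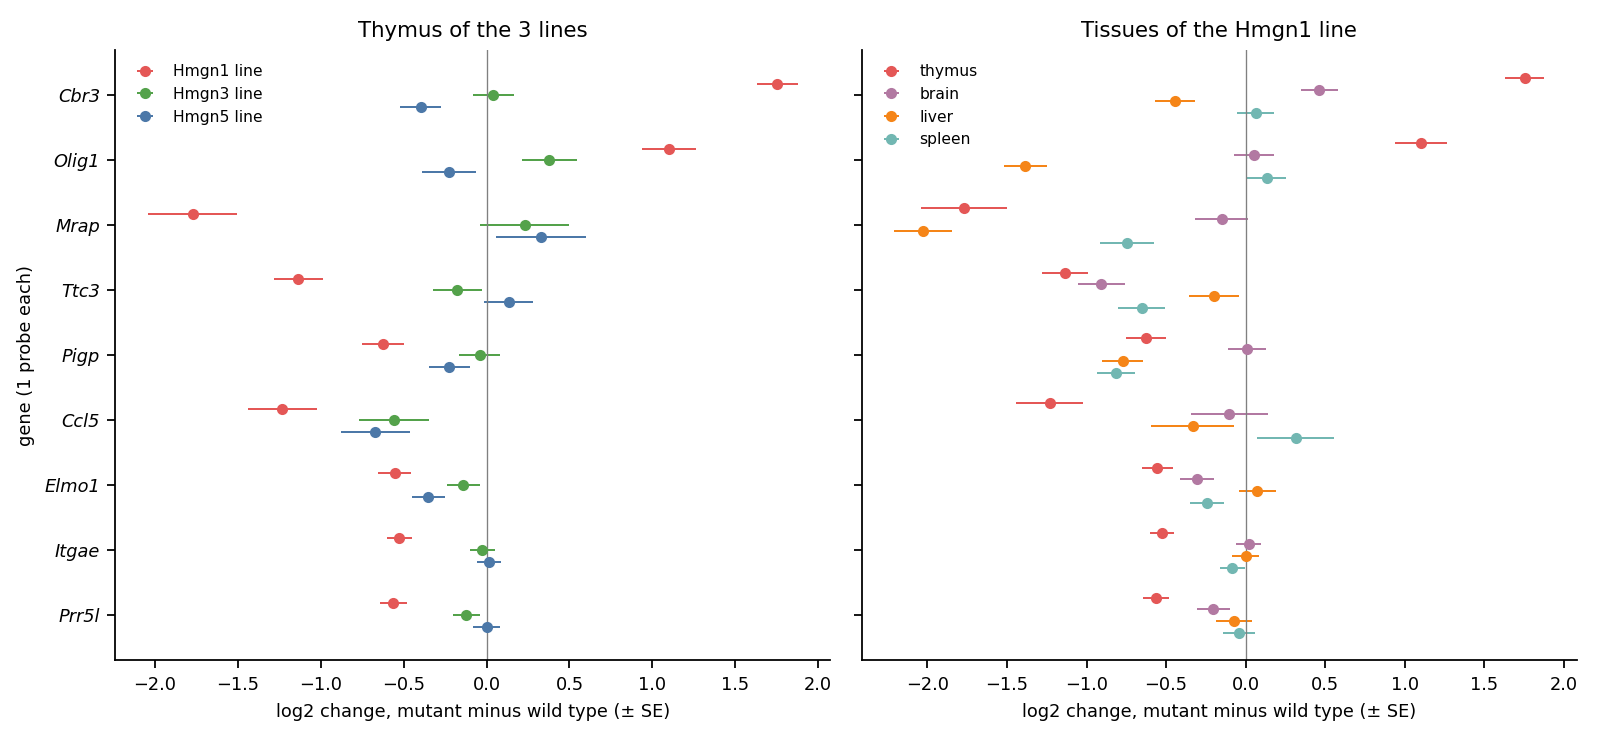
Log2 change (mutant minus wild type, ± SE) of the 8 genes with a passing probe and of Pigp, 1 probe each, in thymus of the 3 lines (left) and in the 4 tissues of the Hmgn1 line (right). The Cbr3 point of the Hmgn1 thymus stands at 1.75, far above those of the other lines and tissues, and Olig1 lies above 0 in thymus and below 0 in liver.

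In the other tissues of the same mice, the genes near Hmgn1 took different courses. Olig1 was at 1.10 in thymus and -1.39 in liver, where it read 430.2 ± 75.98 (SD, n = 3) in wild types and 155 ± 31.8 (n = 4) in mutants. In brain, its level was high in both groups and the change 0.05. The first Cbr3 probe was at 0.46 in brain, -0.45 in liver and 0.06 in spleen, although the spleen wild types read 42.7 ± 5.67 (n = 4), close to those of thymus. The second Cbr3 probe was at 0.47 in brain, 0.23 in liver and -0.10 in spleen, and its liver levels were at or near the noise. Mrap was lower in liver (-2.03) as in thymus, and its spleen level was 15.7 ± 4.59 in wild types and 2.94 ± 3.496 in mutants (n = 4 each, -0.75), near the noise. Brain lay below the noise limit for Mrap in both groups. The Ttc3 probe that passed in thymus was at -0.91 in brain, -0.65 in spleen and -0.20 in liver, where it lay below the noise limit. The 4 brightest Ttc3 probes took another course. They were at -0.03 to 0.04 in brain, -0.10 to 0.06 in spleen and -0.54 to -0.37 in liver. The first Pigp probe was at -0.81 in spleen, -0.77 in liver and 0.01 in brain. The second Pigp probe was at -0.16, -0.45 and 0.22 there.

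A test of whether the thymus change differed from those in brain, liver and spleen (an F test over the 3 differences, with the mouse as a random block) passed for 65 probes, or 0.357 percent. Among them were the first Cbr3 probe and Olig1 (adjusted p = 1.23e-08 for both) and Mrap (adjusted p = 1.47e-04), and these 3 held without any 1 mouse. The first Pigp probe (0.0406), Itgae (0.0361) and the second Cbr3 probe (0.0324) passed, and each held only without mutant 1. Ttc3 did not pass (adjusted p = 0.0908). Each tissue was also compared with thymus apart, by limma contrasts. Mrap differed from brain (adjusted p = 0.0016), but not from liver (0.765) or spleen (0.101). The first Pigp probe differed from none of brain (0.209), liver (0.822) and spleen (0.846) taken singly. The F test count of 65 depended on single mice. It was 498 without mutant 1, 35, 13, 4 and 17 without wild type 4, 1, 2 and 3, and 14, 23 and 13 without mutants 2, 3 and 4.

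Just outside the threshold were 10 falls and 10 rises, named here by smallest p. Peli1, a ubiquitin ligase of receptor signalling in immune cells, read 112, 106, 83.3 and 70.8 in the wild types and 41.7, 61.2, 30.1 and 59.6 in the mutants (change -0.78, adjusted p = 0.059). Cldn1, a tight junction protein, read 46.2, 25.9, 26.6 and 25.1 against 9.45, 5.05, 13.8 and 17.7 (-0.77, adjusted p = 0.0658), and was also lower in thymus of the Hmgn3 (-0.41) and Hmgn5 (-0.97) lines. It lies on chromosome 16 too, 418 genes from Hmgn1. The other falls were Pigp, Galnt11 (-0.59), Ccl21b (-1.72), Gm5796 (-0.87), Ccl21c (-1.94), Lrch1 (-0.55), Spink1 (-0.76) and Zmynd15 (-0.90), with adjusted p-values up to 0.0842. None of these groups overlapped. The second Peli1 probe was at -0.26.

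Among the 10 rises, Taf15, an RNA-binding protein, had the highest level, at 327, 351, 354 and 347 in the wild types and 516, 490.4, 539.5 and 519.9 in the mutants. Both groups were tight and apart (change 0.56, SE 0.117, adjusted p = 0.073). Ndufb10, a subunit of respiratory complex I, read 24.97, 36.6, 22.5 and 22.4 against 45.5, 74.8, 58.1 and 49.4 (0.77). Spon2, a secreted matrix protein, read 84.7, 101, 162 and 129 against 227, 247, 169 and 229.8 (0.82), and Bcl9l, a co-activator of beta-catenin, 93.4, 117, 164 and 162 against 192, 198, 232 and 204 (0.60). The lipid transporter Mfsd2a (1.04), the glycine transporter Slc6a9 (0.72), Otof (0.48), Nat14 (0.55), Nes (0.54) and Rin1 (0.45) started from levels at or near the noise. The adjusted p-values of the 10 ran from 0.0658 to 0.191. The groups overlapped for Mfsd2a and Rin1. The second probes of Otof and Nes were at 0.05 and 0.15. With arrays weighted by their quality, 48 probes passed, 12 higher and 36 lower, and all 9 were among them. Peli1, Cldn1, Lrch1, Pigp and Gm5796 were the added falls of smallest p, and Otof, Slc6a9, Nat14, Mfsd2a and Taf15 the added rises.

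Gene lists of thymus cell types and pathways were described by their members, with no test of a list. They hold 539 entries, of which 430 were tested, with 1 probe a gene. Counts of higher and lower members below include those that did not pass. With 1 array left out, the medians of 36 of the 41 lists moved by over 1.5 times in some fit, and over all 20 alternatives 18 turned sign in some. The median of all tested probes was close to 0, as given above. The medullary epithelium list holds the tissue-restricted antigen regulators and the chemokines that draw maturing thymocytes, and was 2 of 14 higher and 12 lower, with a median of -0.31. Its summed intensity was 3127, 2629, 2527 and 2526 in the wild types and 1771, 2006, 2202 and 2076 in the mutants, without overlap. This gap in summed intensity, which bright genes dominate, rested on Ccl21a, the member with the largest fall, and the sums without that gene overlap. On the log2 scale, the mean over the 14 genes, Ccl21a included, was 6.20 to 6.53 in wild types. In mutants it was 5.92 to 6.11, also without overlap. Of the list's 14 members 5 were lower at an unadjusted p under 0.05, beside 4.81 percent of all tested probes. Of the 14, 0 passed, beside 0.0494 percent of all tested probes. The median was -0.56 to -0.15 over the 20 alternative settings. It was -0.16 and -0.38 in the Hmgn3 and Hmgn5 lines.

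Ccl21a, a chemokine of medullary epithelium that acts on the receptor CCR7, had the smallest p of the list. It read 872, 519.9, 786 and 568 in the wild types and 205, 304, 291 and 90.3 in the mutants, without overlap, and mutant 4 was the lowest. The change was -1.65 (SE 0.359, adjusted p = 0.0842), and did not pass. Ccl21b and Ccl21c are near-identical copies, so the 3 probes are not independent measurements and may read each other's transcripts. They also were lower in the Hmgn3 line, at -1.31, -1.21 and -1.15 for Ccl21a, Ccl21b and Ccl21c, and in the Hmgn5 line, at -1.01, -0.98 and -1.02. Tnfrsf11a, the receptor RANK that medullary epithelium needs (-0.51), Fezf2 (-0.44) and Aire (-0.47), transcription factors that switch on tissue-restricted antigens, and the co-stimulator Cd80 (-0.39) were lower, with adjusted p-values of 0.264, 0.357, 0.464 and 0.389. Aire read 53.1, 41.7, 21.03 and 33.2 against 17.9, 15.7, 25.7 and 27.8, and the groups overlapped. The cortical epithelium list was 5 of 12 higher and 7 lower (median -0.11, from -0.15 without wild type 4 to -0.05 without wild type 2). Its lowest p belonged to Ccl25, the chemokine that draws precursors (-0.41, adjusted p = 0.432), whose second probe was at -0.02. Lymphoid chemokines and receptors were 4 of 14 higher and 10 lower (median -0.23). With Ccl5 and Ccl21a they include Ccl17, a dendritic cell chemokine, at -0.55 (adjusted p = 0.106).

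No gene of the thymocyte lists passed. The double-positive list, which holds the recombinases and co-receptors of the most abundant thymocytes, was 4 of 11 higher and 7 lower (median -0.05, from -0.11 without mutant 2 to -0.02 without mutant 4), and its summed intensity of 25450.5 to 27087 in wild types overlapped with 24146 to 27121 in mutants. T cell receptor and signalling genes were 3 of 15 higher and 12 lower (median -0.14, from -0.18 without wild type 4 to -0.08 without wild type 1), with Cd3g at -0.29, Cd28 at -0.36 and Trat1 at -0.47. Double-negative genes were 4 of 11 higher and 7 lower (median -0.07, from -0.12 without wild type 4 to -0.03 without wild type 1). There Notch3, a receptor that drives early T cell development, read 82.3, 84.4, 116 and 116 in the wild types and 126, 145, 139 and 147 in the mutants, all above the wild types, and its change of 0.43 did not pass (adjusted p = 0.219). Mature single-positive genes were 2 of 11 higher and 9 lower (median -0.15, from -0.25 without wild type 2 to -0.07 without wild type 1). Il7r, the receptor for the survival cytokine interleukin 7, was at -0.62 (adjusted p = 0.315) and also lower in the Hmgn3 (-0.50) and Hmgn5 (-0.48) lines, and its second probe was at -0.37. The GTPase Gimap3 was at -0.55. Regulatory T cell genes were 1 of 9 higher and 8 lower (median -0.19), with the co-stimulatory receptor Tnfrsf4 at 79.8, 47.8, 56.2 and 46.3 against 36.6, 27.7, 42.5 and 25.1 (-0.58, adjusted p = 0.189).

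Antigen presentation and interferon genes were mostly lower and did not pass. All 11 MHC class II genes were lower (median -0.17, from -0.23 without mutant 3 to -0.11 without mutant 4), with H2-Eb1 at -0.35 and the class II transactivator Ciita at -0.34. MHC class I genes were 4 of 14 higher and 10 lower (median -0.16). Nlrc5, the transactivator of class I genes, read 155, 91.1, 115 and 97.4 in the wild types and 80.6, 69.8, 54.3 and 48.6 in the mutants, without overlap (-0.71, adjusted p = 0.191), and was at -0.77 and -0.57 in the Hmgn3 and Hmgn5 lines. Interferon-stimulated genes were 1 of 15 higher and 14 lower (median -0.25). Of these 15, 6 were lower at an unadjusted p under 0.05, beside 4.81 percent of all tested probes. Ifit2, an interferon-induced RNA-binding protein, read 77.6, 66.5, 66.1 and 61.9 in the wild types and 57.1, 43.3, 41.7 and 37.9 in the mutants (-0.47, adjusted p = 0.191), and its second probe was at -0.27. The list's medians in the Hmgn3 and Hmgn5 lines were -0.15 and -0.21.

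Markers of other cells that a thymus can hold followed single arrays in part. Neutrophil genes were 10 of 11 higher and 1 lower (median 0.32, from 0.18 without mutant 3 to 0.40 without mutant 2). Every mutant's sum lay above every wild type's, but this order rested on Ltf, and the sums without it overlap. Ltf, the granule protein lactoferrin, read 24.1, 66.7, 26.5 and 41.1 in the wild types and 44.2, 2389, 90.7 and 1742 in the mutants, of which mutants 2 and 4 stood far above the rest (2.93, SE 1.09, adjusted p = 0.45). A second Ltf probe was at 0.25. Without these 2 arrays the list's median was 0.51. Skeletal muscle genes were 14 of 15 higher and 1 lower (median 0.39, and 0.59 without mutant 2), and without mutant 4, where Acta1 read 2502 against at most 34.8 elsewhere, the median was -0.20. Heart muscle genes were all lower (7 of 7, median -0.40, and -0.77 without wild type 1), and without wild type 4, where the heart hormone Nppa read 10009.6 against at most 1662 elsewhere, the median was 0.10. Smooth muscle genes were 6 of 7 higher and 1 lower (median 0.47, from 0.31 without wild type 1 to 0.57 without wild type 4). Actg2, a smooth muscle actin, read 9.34, 22.3, 38.4 and 45.3 against 38.7, 166, 109.7 and 149 (1.499, adjusted p = 0.192).

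Erythroid genes were 5 of 5 higher and 0 lower (median 0.24, from 0.09 without wild type 2 to 0.44 without mutant 3), with the globin Hbb-bt at 0.36. Macrophage genes (6 of 11 higher and 5 lower, median 0.07, from -0.02 without wild type 4 to 0.11 without wild type 1), B cell genes (5 of 10 higher and 5 lower, median -0.03, from -0.08 without mutant 2 to 0.07 without wild type 3) and plasma cell genes (4 of 6 higher and 2 lower, median 0.04, from -0.03 without mutant 2 to 0.10 without mutant 3) had overlapping sums. Dendritic cell genes were 4 of 9 higher and 5 lower (median -0.13, from -0.18 without mutant 1 to -0.04 without wild type 1). Fibroblast genes were 6 of 10 higher and 4 lower (median 0.03, from -0.03 without mutant 2 to 0.16 without mutant 4) and endothelial genes 5 of 11 higher and 6 lower (median -0.07, from -0.17 without wild type 1 to 0.07 without wild type 4). Of 5 tested parathyroid and thyroid genes 2 were higher and 3 lower (median -0.08, from -0.12 without wild type 2 to 0.0021 without wild type 3), and Pth, the parathyroid hormone, read 39.4, 40.6, 28.8 and 14.5 in wild types and 24.3, 25.5, 3.995 and 21.7 in mutants. None of the markers named here passed.

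Stress and growth programs also gave no passing gene. Glucocorticoid-induced genes, which thymocytes are sensitive to, were 12 of 14 higher and 2 lower (median 0.17, from 0.11 without mutant 2 to 0.27 without mutant 3). Tsc22d3, which encodes the glucocorticoid-induced leucine zipper, read 456, 752, 517 and 759.9 in the wild types and 1101, 1111, 841 and 908 in the mutants, all above the wild types (0.68, adjusted p = 0.355). Ddit4, an inhibitor of mTORC1, was at 0.58 (adjusted p = 0.341). Heat shock chaperones were 9 of 12 higher and 3 lower (median 0.13, from 0.08 without wild type 1 to 0.24 without wild type 4), and Hsph1, of the HSP110 family, had the smallest p (0.65, adjusted p = 0.329). Proliferation genes were 12 of 15 higher and 3 lower (median 0.14, from 0.07 without wild type 3 to 0.19 without mutant 1), with the mitotic kinases Plk1 (0.37) and Aurka (0.40) first by p. Genes of the p53 response and apoptosis were 4 of 12 higher and 8 lower (median -0.04, from -0.07 without wild type 4 to -0.01 without wild type 1), with the death receptor Fas at -0.35 (its other probes at -0.30 and 0.01). Nucleotide excision and mismatch repair genes, a process HMGN1 has been tied to, were 5 of 12 higher and 7 lower (median -0.08, from -0.10 without wild type 3 to -0.02 without mutant 1), and none had an unadjusted p under 0.05.

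Immediate early genes were 5 of 12 higher and 7 lower (median -0.03, from -0.05 without wild type 1 to 0.04 without wild type 4), and Fos was at -0.39. Genes of other chromatin proteins with related roles, the HMGB and HMGA proteins and linker histones, were 2 of 8 higher and 6 lower (median -0.06, from -0.09 without wild type 1 to -0.01 without mutant 2), with the linker histone H1f10 at 0.35 and Hmgb2 at -0.27. Oxidative phosphorylation genes were 8 of 18 higher and 10 lower (median -0.0023, from -0.04 without wild type 2 to 0.04 without mutant 1) and stayed within -0.13 to 0.14. Cytosolic ribosomal protein genes were 2 of 11 higher and 9 lower (median -0.10, from -0.12 without wild type 4 to -0.02 without wild type 1). The 3 tested genes of the melanocortin pathway, Mrap among them, had a median of 0.03, from -0.08 without mutant 2 to 0.09 without mutant 3. That of the 4 Olig and neural factors was -0.05, from -0.11 without wild type 1 to -0.02 without mutant 1, and that of the 4 HMGN genes was 7.1e-05, from -0.07 without mutant 3 to 0.01 without mutant 4.

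**Figure D5:**
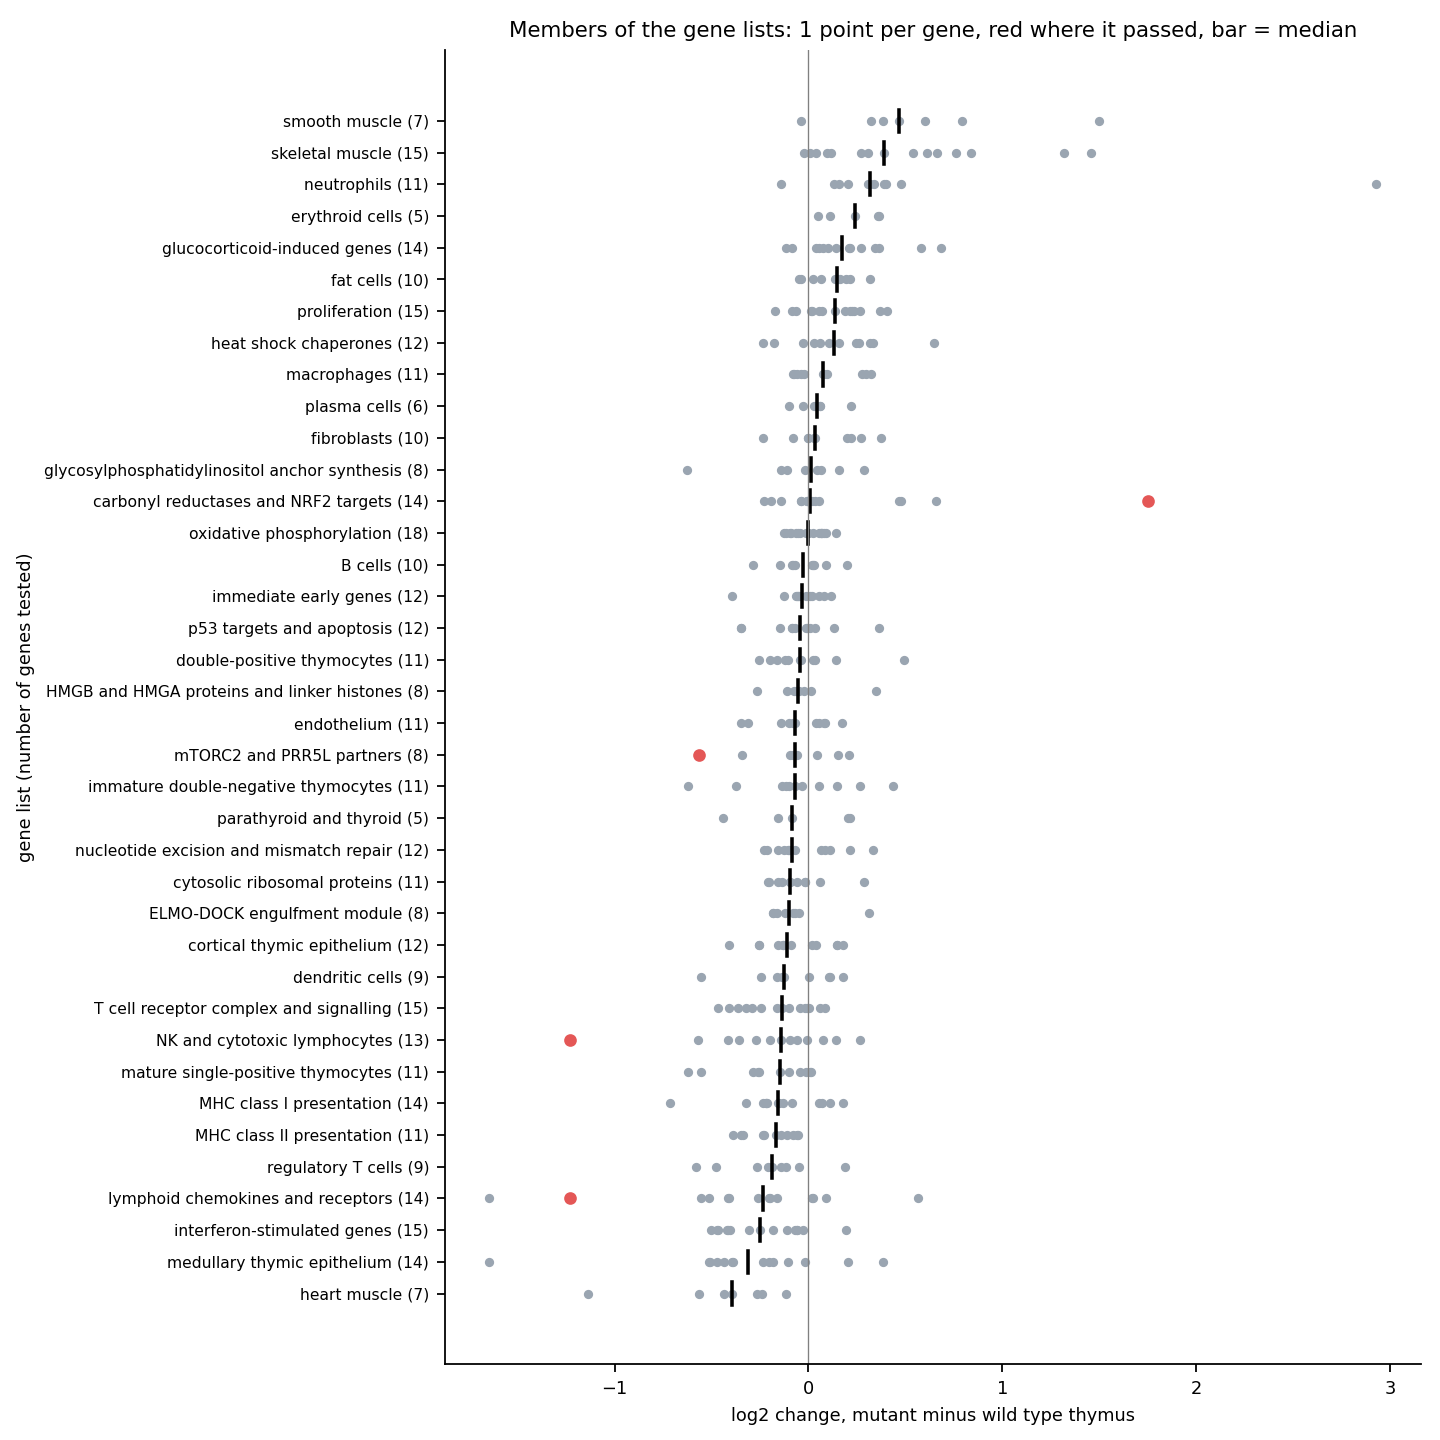
Log2 change (mutant minus wild type thymus) of each tested gene, grouped by the gene lists with 5 or more tested genes and sorted by the list's median (black bar). Passing genes (red) are Cbr3, Ccl5, which is in 2 lists, and Prr5l, and the medullary epithelium list has a median of -0.31 with 0 passing genes.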

How the data were processed

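RNA of whole thymus was measured on Illumina arrays, 1 array a mouse. The intensities are those the authors deposited in the value table of the series, where 23.4 percent of the probes of each array lie below 0. The negative values and array medians of 5.66 to 5.70 show that these intensities were background-subtracted and scaled between arrays before they were deposited. Per the submitters' processing notes the software was GenomeStudio 2011.1. The method of normalisation is not stated there. In another deposited table, 188 columns of per-sample values match no sample's labels and were not used. Of the probes, 23978 carry 1 gene symbol in the platform's annotation, 0 several and 1719 none, and 23962 were matched to RefSeq.

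Values below 0 were set to 0, 16 was added and log2 was taken. The noise of an array is the root mean square of its values below 0. Probes above 1.64 times that noise on 3 or more of the 24 thymus arrays were fitted with limma 3.58.1 in R 4.3.3, as 6 groups, a script tested on simulated data. The Hmgn1 change was also tested against the mean of the Hmgn3 and Hmgn5 lines, and against the other tissues over the 31 arrays of the line. 1 mouse of the Hmgn5 line was placed there by elimination. Replicates are separate mice. Slide, scan and array position are not in the labels, and their part was not tested. The number of arrays limits the precision.

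The text names the passing probes, the 10 rises and 10 falls of smallest p that did not pass, the HMGN genes, the neighbours of Hmgn1 with an unadjusted p under 0.05, members of smallest p in each list and defining cell markers. Some list members, such as Cbr1, Olig2, Adipoq and Pth, are named for their role, after their values were seen. The comparison, the 41 lists (539 entries, 480 on the array, 430 tested, of 414 different genes) and the tests were chosen with earlier results of these data known.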

Additional observations from a re-analysis of the deposited data

Results flagged for a closer look

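In all, 6 tests of a line difference among the genes named here passed. The Hmgn1 line minus the mean of the other lines in thymus was 1.93 for Cbr3, -2.05 for Mrap, -1.11 for Ttc3 and -0.52 for Itgae. Nat14, an acetyltransferase-like gene near the noise, was at 0.90, with 0.55 in the Hmgn1 line, -0.14 in the Hmgn3 line and -0.57 in the Hmgn5 line. This call was lost without wild type 1 (adjusted p = 0.0559). The difference of 0.74 for an Hmgn3 probe came with -1.45 in the Hmgn3 line, where Hmgn3 is the mutated gene, and it held in 3 of the 8 fits without 1 array.

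The F test of the thymus change against those of the other tissues passed for 12 probes named here. It does not say which tissue differed, and Mrap and Pigp did not differ from liver or spleen singly. The adjusted p of the F test was 1.23e-08 for Cbr3 and for Olig1, 1.47e-04 for Mrap, 0.0324 for the second Cbr3 probe, 0.0361 for Itgae and 0.0406 for 1 of the 2 Pigp probes. It was 0.00414 for Ccl21b, 0.00653 for Ccl21a and 0.0113 for Ccl21c, whose changes in spleen were 0.23, 0.21 and -0.09 beside -1.72, -1.65 and -1.94 in thymus. It was 0.00785 for the immediate early gene Egr1, 0.0406 for the kinase Sgk1 and 0.0415 for Ndufb10. Of these 12, the first Cbr3 probe, Olig1 and Mrap held in all 8 fits that leave out 1 mouse.

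Single arrays lay far from the rest of their group for 22 of 285 groups of 4 arrays checked, by Dixon's test at the 95 percent level, and chance flags about 1 in 20. Among markers of other tissues, Tnnc2 read 1156 in mutant 4 and 3.03 to 10.2 in the other 3 arrays of its group. Nppb read 58.97 in wild type 4 and -1.04 to 3.22 in the other 3. Hbb-bt read 237 in wild type 4 and 92.6 to 101 in the other 3. Vsig4 read 48.8 in mutant 1 and 2.59 to 6.25 in the other 3. C1qc read 391 in wild type 1 and 285 to 297 in the other 3. Pth read 3.995 in mutant 3 and 21.7 to 25.5 in the other 3. Lep read 70.2 in mutant 3 and 34.3 to 38.5 in the other 3. Col3a1 read 33.7 in mutant 1 and 23.7 to 24.7 in the other 3. Among thymocyte, epithelial and presentation genes, Gimap3 read 58.7 in wild type 3 and 46.3 to 47.4 in the other 3. Tbata read 3647 in mutant 3 and 2872 to 2964 in the other 3. H2-Eb1 read 930.0 in mutant 4 and 1152 to 1203 in the other 3. Myb read 1.87 in mutant 2 and 15.9 to 19.5 in the other 3. Among the genes just outside the threshold, Cldn1 read 46.2 in wild type 1 and 25.1 to 26.6 in the other 3. Gm5796 read 237 in wild type 1 and 150.0 to 162 in the other 3. Gm5796 read 56.7 in mutant 4 and 99.9 to 105 in the other 3. Of the stress, repair and housekeeping genes, Hsph1 read 131 in wild type 1 and 198 to 209 in the other 3. Fos read 37.7 in mutant 2 and 19.4 to 21.4 in the other 3. Xpa read 284 in wild type 1 and 129 to 144 in the other 3. Rplp0 read 144 in wild type 3 and 121 to 125 in the other 3. Ndufv1 read 2605 in mutant 2 and 2346 to 2376 in the other 3. Atp5h read 775 in wild type 4 and 579 to 595 in the other 3. Hmgn3 read 549.6 in wild type 2 and 445 to 454 in the other 3.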

How the results depend on the processing

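The count of 9 passing probes was 13 with values floored at 1 and no offset (6 of the 9 shared) and 13 with an offset of 64, 11 without the noise filter, 7 with a stricter one, 8 after quantile normalisation and 12 with a trended and robust prior. It was 48 with array weights, all 9 included, and 3 with only the 8 arrays of the line. With 1 array left out the count ran from 7 to 17. Chosen after seeing the data, leaving out wild type 4 of the Hmgn5 line, the array of lowest weight, gave 14, leaving out wild type 4 and mutant 4 gave 11, and leaving out mutants 2 and 4 gave 3. The replicate numbers in the titles, which belong to different mice, did not pair the samples: deviations of same-numbered arrays correlated at -0.0288, -0.0611, -0.0544 and -0.0483, and no array matched its own number best. With the number as a replicate block, in the 8 arrays of the line, 1 probe passed, of Cbr3. That Cbr3 probe passed in all 20 alternatives, Ttc3 in 18, Olig1 in 17, the second Cbr3 probe and Mrap in 16, Itgae and Prr5l in 16 of 19, Ccl5 in 12 and Elmo1 in 9. The stricter noise filter removed Itgae and Prr5l as too dim, so they were not tested in that setting and are not among its calls. The 7 line differences were 4 with the floor, with the offset of 64, with the stricter filter and without mutants 2 and 4, 11 with array weights, 1 without wild type 4 and mutant 4, and 2 to 7 with 1 array left out. The 65 tissue differences were 4 to 498 with 1 mouse left out, 65 without the mouse block and 79 with the floor. The cause of these shifts was not tested. In none of the 20 alternatives did the Hmgn1 probe pass (-0.53 to -0.30), and no passing probe changed direction. Medians of gene lists did: 23 of the 41 lists kept their sign in all 20 alternatives and 18 did not, and 26 kept it with any 1 array left out. Probes near the noise limit, among them Itgae, Prr5l, Olig1 and the second Cbr3 probe, have little signal over background, and the sizes of their changes depend on the offset.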
